A study of Bos taurus with 106 samples.

Results

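The transcripts described here encode the proteins of the cytosolic ribosome, measured in Holstein cow liver from the start of the dry period into lactation. The members were all array elements whose single gene symbol was RPS or RPL followed by a digit, or RPSA, RPLP0, RPLP1 or RPLP2, without the RPS6K kinases, RPS19BP1 and the mitochondrial MRP genes. This gave 57 of 8208 elements for 47 genes: 20 elements (17 genes) of the small subunit and 37 elements (30 genes) of the large subunit. Elements of 1 gene were kept separate, 10 genes had 2 elements, and 6 further elements that carried a ribosomal name beside another symbol were left out. RPS12 lacked a value in 12 of 53 samples and was not tested, so 56 elements of 46 genes entered the tests. RPL5 was tested with 13 samples missing.

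The study compared feeding levels before calving. All 8 cows had a dry period of 65 days and a diet of 1.60 Mcal/kg, and no other treatment is named in the labels. Restricted cows (n = 4) received about 80% of the NRC requirement, and ad libitum cows (n = 4) ate freely and took in about 120%. Liver samples came from days -65, -30, -14, 1, 14, 28 and 49, counted from calving, with 8 cows on each day except day -65 (7 cows, 1 ad libitum cow absent) and day 49 (6 cows, 2 ad libitum cows absent). The sources used here do not give the age of the cows. Each sample was hybridised on 2 spotted cDNA arrays, with the liver once in Cy5 and once in Cy3, against 1 common reference made of other tissues. The measure throughout is the log2 ratio of liver over reference, centred on the median of each array, so a value of 0 is the level of the median element and not the absence of a transcript.

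The cytosolic ribosome joins a small subunit, which binds the mRNA, to a large subunit, which forms the peptide bonds. Each ribosomal protein is made in a similar amount, and most of their mRNAs begin with a terminal oligopyrimidine (TOP) tract, through which mTOR signalling and LARP1 control their translation with the supply of nutrients. The liver makes most plasma proteins and carries many ribosomes, and its protein synthesis is known to respond to feeding and to the onset of lactation.

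The tissue label fitted the defining markers: TF, SLC10A1, RBP4 and APOA1, 4 of 19 hepatocyte genes listed, lay above the reference on every day, with day means of 3.98 to 5.57 for TF and 3.86 to 6.14 for SLC10A1. The 2 arrays of a sample agreed less on 3 of the days. Their correlation across elements averaged 0.852, 0.886, 0.863 and 0.897 on days -65, -30, 28 and 49, but 0.668, 0.616 and 0.669 on days -14, 1 and 14, and all 7 samples with a correlation under 0.6 fell on the latter days. Days and agreement therefore cannot be told apart by the design alone, and the comparisons of days and of feeding levels are also given by dye orientation.

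Ribosomal protein transcripts lay low against the reference at the start of the dry period and nearer to it around calving. The median over the 56 elements, taken in each cow, averaged -1.25 ± 0.10 (SD, n = 7) at the first sampling, day -65, and -1.03 ± 0.13 on day -30 (SD, n = 8). Around calving it was -0.53 ± 0.31 on day -14, -0.45 ± 0.21 on day 1 and -0.56 ± 0.23 on day 14 (SD, n = 8 each). Day 28 had -0.85 ± 0.22 (SD, n = 8) and day 49 had -0.94 ± 0.19 (SD, n = 6). Cows ranged from -1.28 to -0.85 on day -30, from -0.97 to -0.048 on day -14, from -0.74 to -0.075 on day 1 and from -0.87 to -0.23 on day 14. Day 1 did not overlap day -30, and days -14 and 14 overlapped it at their lowest cows. Both subunits followed this course: small-subunit elements had a mean of -1.15 on day -30 and -0.62 on day -14, large-subunit elements -0.999 and -0.47. In these whole-tissue samples fewer cells of a type and less RNA per cell cannot be told apart.

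**Figure D1:**
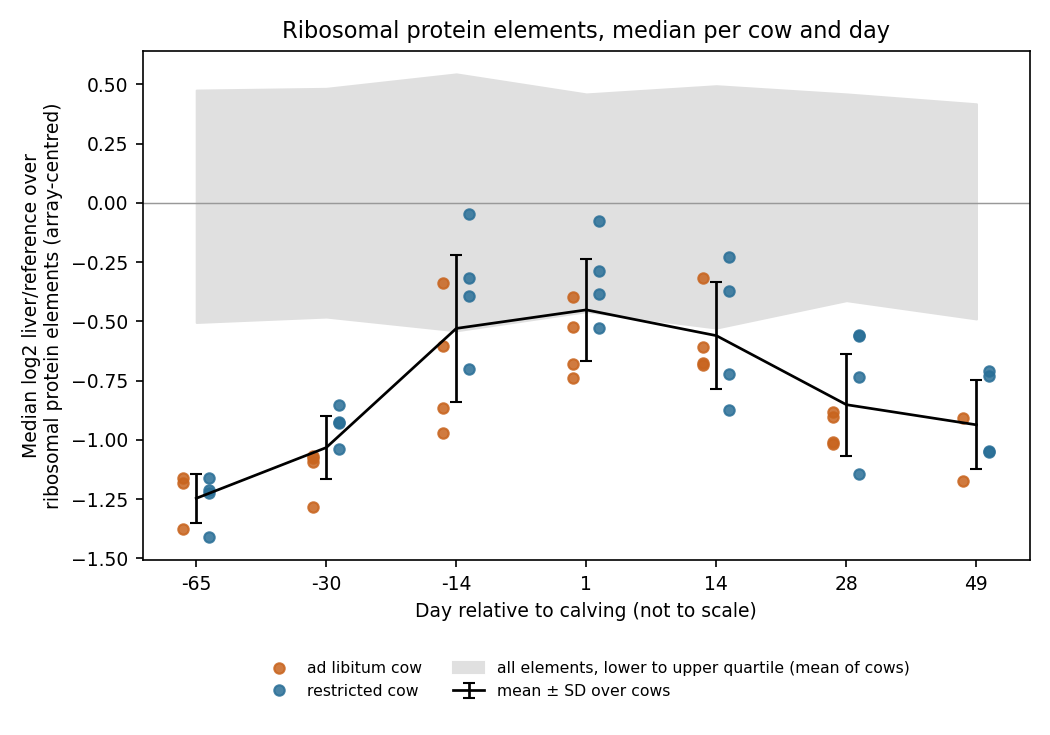
Median log2 ratio of liver over reference over the 56 ribosomal protein elements (vertical axis) by day relative to calving (horizontal axis). Points are cows, coloured by feeding level, the line with bars is the mean ± SD over cows, and the grey band spans the quartiles of all elements. The mean climbed from -1.25 on day -65 to -0.45 on day 1 and stood at -0.94 on day 49.

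Over the 7 days 47 of 56 elements (83.9%) differed by limma's F test with an adjusted p under 0.05, against 43.4% of all 8061 elements tested. On arrays with the liver in Cy5 53 of 56 passed (94.6%), against 36.4% of all elements. In Cy3 30 of 57 passed (52.6%), close to the 51.3% of all elements. On both orientations together, the 9 that did not pass were RPS2, RPS3A, RPS10, RPS14, the second elements of RPS15A and RPS24, the first element of RPL6, the second of RPL15, and RPL5. The smallest p-values of the small subunit belonged to RPS29 (adjusted p = 3.06e-11), RPS27 and the first element of RPS15A, and those of the large subunit to the first element of RPL35 (adjusted p = 7.30e-10), RPL30 and RPL39. Their values in single cows are given with the steps between days.

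On both orientations together the step from day -30 to day -14 held most of the change. With the liver in Cy3 alone this did not hold. There the median change over the 56 elements was 0.23 in this step and 0.22 from day -65 to day -30. Elements are said to rise or fall where limma's adjusted p was under 0.05. Of 56 elements 40 rose and 0 fell (71.4%, 35 genes), while 19.5% of all elements rose and 14% fell. The median change over the ribosomal protein elements was 0.52 on the log2 scale, against 0.06 over all elements. The gap was smaller among elements low at the outset: with a ratio under -1 on day -65, 38 ribosomal protein elements had a median change of 0.57 and all 878 such elements, members included, one of 0.38. Of the small subunit 11 of 19 elements rose, and of the large subunit 29 of 37. Elements that did not pass nearly all lay above 0 as well, 13 of 16.

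Among small-subunit transcripts the first element of RPS15A rose by 0.92 ± 0.15 (SE, adjusted p = 1.70e-05), higher in 8 of 8 cows. RPS27 and RPS29, a pair of small zinc-binding proteins of the subunit, rose by 0.89 ± 0.15 and 0.86 ± 0.14. RPS25, which some viral mRNAs need for internal initiation, rose by 0.88 ± 0.18 (adjusted p = 0.0002). RPS18, both RPS3 elements, RPS20, RPS9, RPS7 and RPS16 rose by 0.36 to 0.65. RPS2, RPS3A, RPS10, RPS14 and RPS21 had changes of 0.11 to 0.34 and did not pass.

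RPS29 lay between -1.38 and -0.88 (median -1.23) on day -30 and between -0.79 and 0.40 (median -0.33) on day -14. The 8 cows of each day did not overlap, and cow 7105 was highest on day -14. RPS27 ranged from -0.90 to -0.0018 (median -0.61) on day -30 and from -0.056 to 0.87 (median 0.45) on day -14. The lowest cow of day -14, 7050, fell inside the range of day -30. The first RPS15A element ranged from -1.81 to -1.17 (median -1.61) and then from -1.19 to -0.19 (median -0.66), with cow 6886 just inside the earlier range.

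Among large-subunit transcripts RPL30, which in mammals also binds selenocysteine insertion elements, rose by 0.88 ± 0.18 (adjusted p = 0.000268). The first element of RPL15 rose by 0.78 ± 0.13 and the second element of RPL35, a protein near the exit of the peptide tunnel, by 0.77 ± 0.14. RPL23, a protein that can bind MDM2, rose by 0.75 ± 0.19, and the second element of RPL8, which lies close to the peptidyl transferase centre, by 0.73 ± 0.16. RPL38, needed in mouse embryos for translation of certain Hox mRNAs, rose by 0.68 ± 0.14. Of the acidic stalk proteins RPLP1 rose by 0.44 ± 0.12, and RPLP2 was at 0.37 ± 0.16 (adjusted p = 0.0629). Both RPL6 elements (0.25 and 0.36), the second elements of RPL3 and RPL15, RPL37A, RPL7L1 and RPL5 did not pass. RPL7L1, a paralog of RPL7 that the symbol rule includes, was at 0.28 ± 0.15. RPL5, which carries the smallest ribosomal RNA into the subunit, was at -0.10 ± 0.63, with both days measured in only 3 cows.

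RPL30 ranged from -2.12 to -1.14 (median -1.70) on day -30 and from -1.17 to -0.54 (median -0.80) on day -14. Cows 6877 and 6886 lay inside the earlier range. The first element of RPL35 ranged from -1.30 to -0.65 (median -0.87) and then from -1.02 to 0.28 (median -0.31), with the ad libitum cows 7050 and 6886 inside the earlier range. RPL39, which lines the peptide tunnel, ranged from -1.94 to -1.43 (median -1.70) and then from -1.52 to -0.37 (median -1.14), with cows 7045 and 6886 inside the earlier range. The first RPL15 element (-0.19 to 0.27, then 0.36 to 1.15) and RPS25 (-1.48 to -0.54, then -0.42 to 0.16) did not overlap between the days.

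**Figure D2:**
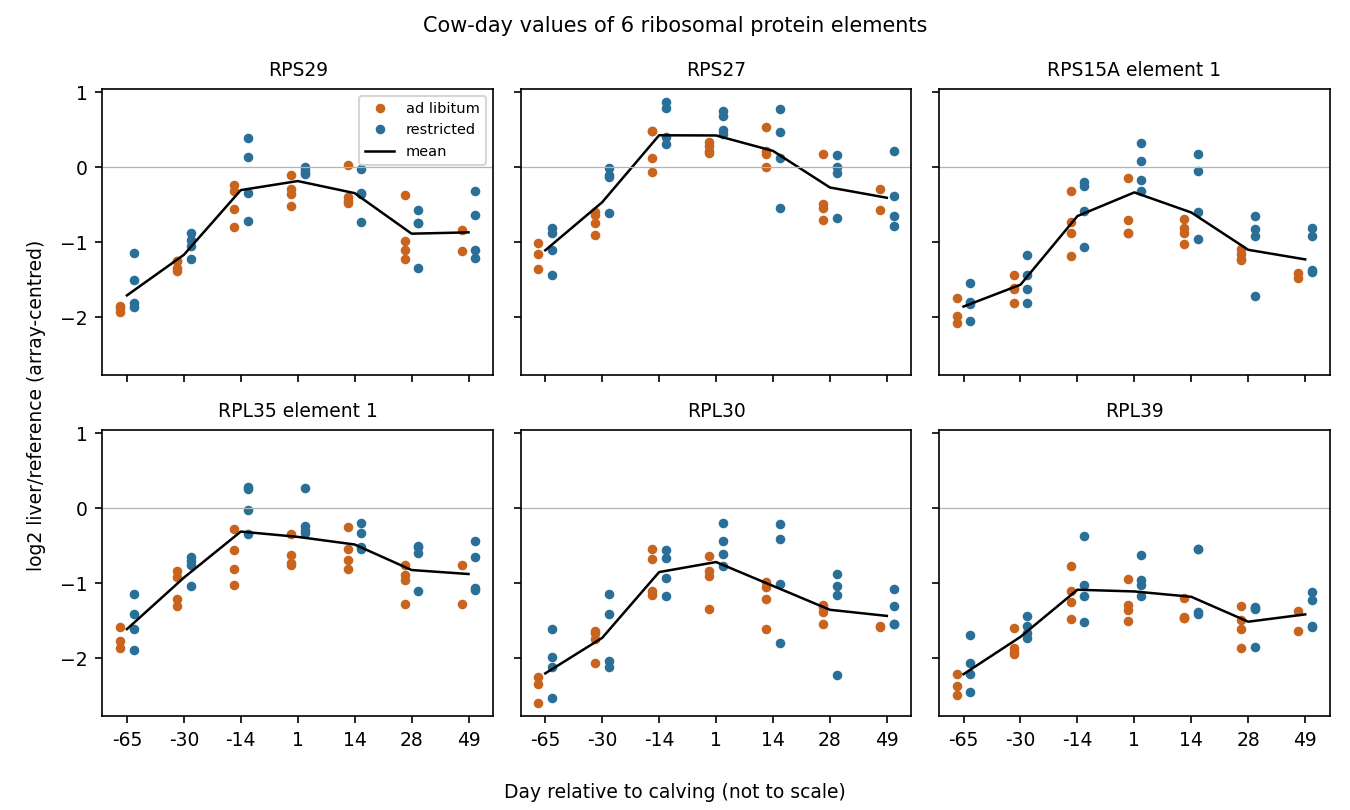
Log2 ratios of liver over reference (vertical axis) in every cow by day relative to calving (horizontal axis) for the 3 small-subunit and 3 large-subunit genes with the smallest p over days. Points are cows by feeding level and lines are day means. In each panel the means of days -14, 1 and 14 lie above those of days -30 and 28, for RPS29 at -0.30, -0.18 and -0.34 against -1.17 and -0.88.

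Every cow had more ribosomal protein elements above than below its own day -30 value, but by different amounts. The share ran from 38 of 56 elements in cow 7050 (median change 0.09) to 55 of 56 in cow 6952 (0.57), and the median change was largest in cow 7105 (1.05) and cow 7187 (0.90). Of all elements 51.1% to 57.4% were higher in these cows. The count of 40 was 26 without cow 7187, 31 without cow 7105, and between 37 and 41 without any other cow. With orientation agreement as a covariate 40 elements rose, and 42 rose without the 7 samples of low agreement.

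The rise was not of the same size in both dye orientations. With the liver in Cy5 50 of 56 elements rose and 0 fell, and their median change was 0.77, against 18.5% of all elements rising and 10% falling. With the liver in Cy3, where RPS12 could also be tested, 7 of 57 rose and 1 fell, and their median change was 0.22, against 21.8% of all elements rising and 18.7% falling, so the members' share there was below that of the array. The 7 were RPS9, RPL13A, RPL28, RPL29, the first element of RPL15, and the second elements of RPL8 and RPL35. All 7 also rose with the liver in Cy5. The element that fell was the second of RPS24. In Cy3 the change had the opposite sign from the average of both orientations in 13 of 56 elements. Among these were 5 of the 40 that rose, RPL37, RPL31, RPL19, RPS16 and the second element of RPL34, at -0.12 to -0.0037 in Cy3. The change was larger in Cy5 than in Cy3 for 53 of 56 elements. RPS29, for example, changed by 1.37 ± 0.16 in Cy5 and by 0.36 ± 0.19 in Cy3 (adjusted p = 0.136), and RPL30 by 1.40 ± 0.21 and 0.35 ± 0.18 (adjusted p = 0.121).

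The gap between the orientations was itself largest around calving. The members' median was higher with the liver in Cy5 than in Cy3 by 0.47 ± 0.21 on day -65 (SD, n = 7) and by 0.45 ± 0.13 on day -30 (SD, n = 8). The gap was 1.07 ± 0.15 on day -14, 1.13 ± 0.37 on day 1 and 0.95 ± 0.34 on day 14 (SD, n = 8 each), then 0.63 ± 0.15 on day 28 (SD, n = 8) and 0.36 ± 0.20 on day 49 (SD, n = 6). The 8 samples of day -14 (0.89 to 1.33) did not overlap those of day -30 (0.27 to 0.66). Averaged over samples the Cy5 ratio exceeded the Cy3 ratio in 54 of 56 members and in 4930 of all 8061 elements tested. The median difference was 0.76 over the members and 0.15 over all elements. With the liver in Cy3 the members' median moved from -1.27 ± 0.16 on day -30 to -1.08 ± 0.33 on day -14. The same cows were sampled on both days, so these SDs of single days do not test the shift. In Cy3 42 of 56 members had a change above 0, against 4484 of all 8061 elements. The part of the dyes in the rise was not tested beyond these values.

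**Figure D3:**
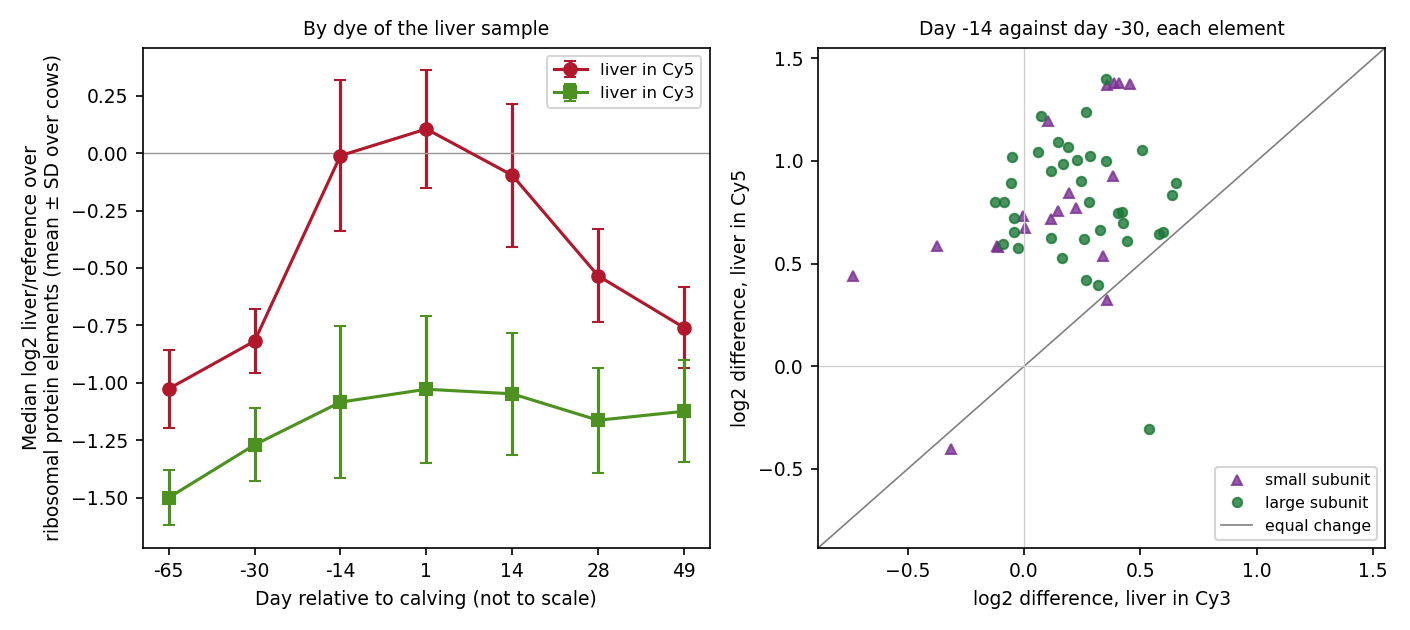
Left, the median log2 ratio over ribosomal protein elements by day relative to calving, as mean ± SD over cows, for arrays with the liver in Cy5 and in Cy3. Right, the change of each element from day -30 to day -14 with the liver in Cy5 (vertical) against Cy3 (horizontal), with a line of equal change. On day -14 the means were -0.01 in Cy5 and -1.08 in Cy3, and 53 of 56 elements lie above the line.

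Separate elements of 1 gene mostly agreed. Over the 53 samples the 2 elements of RPS3 correlated at 0.993, and those of RPL27, RPL6, RPL34, RPL3 and RPL8 at 0.877 to 0.962. RPL35 (0.713) and RPL15 (0.548) agreed less, and RPS24 (0.144) and RPS15A (-0.136) did not agree. These values include the course over days that elements share. With day means removed, RPL15 was at 0.67, RPL35 at 0.31, RPS24 at 0.28 and RPS15A at 0.10. The genes that correlated more closely over all samples were then at 0.78 to 0.99. From day -30 to day -14 the first RPS15A element rose while the second was at -0.36 ± 0.33 (adjusted p = 0.422). The second RPS15A element ranged from -0.36 to 2.76 on day -30 and from -0.84 to 2.71 on day -14, so its cows overlapped almost completely. RPS24 had 0.65 ± 0.26 (adjusted p = 0.0528) and -0.15 ± 0.12 (adjusted p = 0.345). No gene had elements that passed in opposite directions. When elements of a gene were averaged, 34 genes rose and the RPS15A average was at 0.28 and did not pass.

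From day 14 to day 28 the direction was reversed. Of 56 elements 8 fell and 0 rose (14.3%), while 4.91% of all elements fell and 3.71% rose. The median change was -0.26, against 0.04 over all elements, and 48 of 56 lay below 0. RPS29 fell by 0.54 (SE 0.14, adjusted p = 0.0108), lower in 8 of 8 cows. RPL37 and RPL38 each fell by 0.51 on the log2 scale, the first RPS15A element by 0.50, RPS27 by 0.49, the second RPL35 element and RPL28 by 0.45 each, and the first RPL15 element by 0.41. Adjusted p-values ran up to 0.0464.

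RPS29 ranged from -0.73 to 0.028 (median -0.38) on day 14 and from -1.34 to -0.36 (median -0.86) on day 28. The days overlapped, and the ad libitum cow 7161 was highest on both. RPS27 ranged from -0.55 to 0.78 (median 0.20) and then from -0.71 to 0.18 (median -0.28), again with overlap. The cows did not move together: in 6 cows 2 to 13 of the 55 or 56 elements were higher on day 28, while cow 6952 had 39 of 56 and cow 7045 44 of 55 higher. Both exceptions were restricted cows. Of all elements 46.3% to 51.9% were higher on day 28 in the 8 cows.

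All 8 elements were among the 40 that had risen by day -14, that is 20% of those that rose and 100% of those that fell. Since 71.4% of the 56 members had risen, a large overlap was likely for any 8 of them. The overlap among all elements was not counted. The 2 steps share no samples but come from the same cows. With the liver in Cy5 10 of 56 elements fell (1.5% of all elements fell and 1.03% rose). With the liver in Cy3 1 fell, the second element of RPL35, and 1 rose, the second of RPS24 (12.6% and 16.2% of all elements). The count was 0 without cow 7105, 16 without cow 6952, and 2 to 6 without any other cow, so it rested on single cows. It was 43 on uncentred values, where the median over all elements was -0.44 and 31.2% of them fell, 34 with scaled arrays (11.3% of all elements) and 25 with quantile normalised arrays (8.27%).

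**Figure D4:**
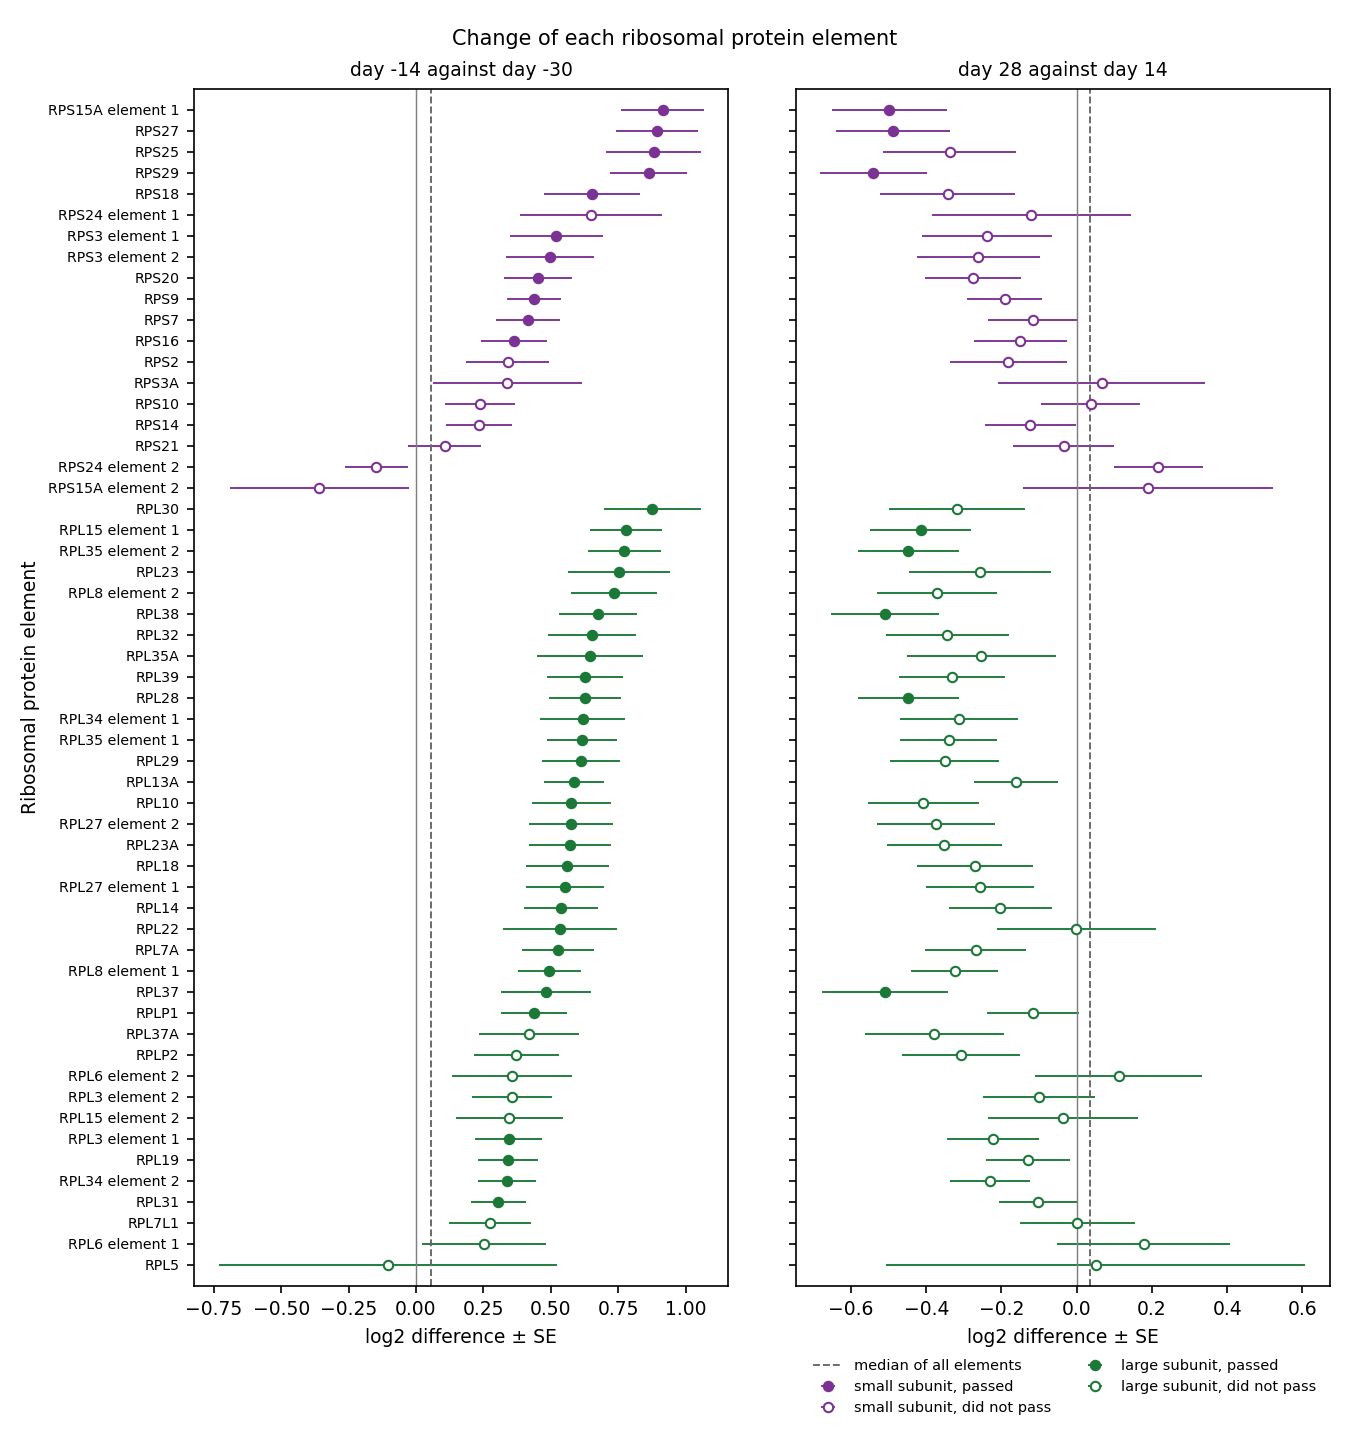
Log2 difference ± SE (horizontal axis) of each ribosomal protein element (rows) for day -14 against day -30 and for day 28 against day 14. Filled points passed at an adjusted p under 0.05, colours mark the subunits, and the dashed line is the median of all elements. In the left panel 40 filled points lie above 0, and in the right panel 8 lie below it.

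In the other steps limma called few or no members. From day -65 to day -30 the median change was 0.24, against -0.02 over all elements, and 44 of 56 elements lay above 0. The median change was above 0 in each of the 7 cows, at 0.10 to 0.32, and 20 members had an unadjusted p under 0.05 (7.69% of all elements). RPL37 rose by 0.78 ± 0.17 (adjusted p = 0.0496) and the first RPL35 element by 0.70 ± 0.13 (adjusted p = 0.0149), each in 7 of 7 cows, or 3.57% of 56 elements against 0.0992% of all elements rising. RPL37 did not pass under any other setting that kept all cows except the restriction to complete elements. The size of this step was similar in both orientations, with medians of 0.21 in Cy5 and 0.22 in Cy3. Of the members 1 of 56 and 0 of 57 passed (0.184% and 0.0123% of all elements). An unadjusted p under 0.05 was reached by 14 and 21 (6.85% and 7.19% of all elements). From day -14 to day 1 limma called 0 members and 0.397% of all elements, with 3 members at an unadjusted p under 0.05 (9.86% of all elements). The smallest p-values were those of RPS9 (0.39 ± 0.10, adjusted p = 0.0638), RPL7L1 (0.44 ± 0.15) and the first RPS15A element (0.32 ± 0.15). From day 1 to day 14 it called 0 members and 0.707% of all elements. An unadjusted p under 0.05 was reached by 5 members (10.2% of all elements), with RPS9 at -0.34 ± 0.10 and RPL7L1 at -0.47 ± 0.15. From day 28 to day 49 limma called 0 members and 0.0124% of all elements, with 0 members at an unadjusted p under 0.05 (7.21% of all elements). In these 3 steps limma also called 0 members in either orientation. The medians in Cy5 and Cy3 were 0.10 and 0.06 for day 1 against day -14, -0.21 and -0.07 for day 14 against day 1, and -0.31 and 0.06 for day 49 against day 28. Members at an unadjusted p under 0.05 numbered 3 and 2 (11.89% and 5.72% of all elements), then 7 and 3 (11.99% and 7.73%), then 14 and 2 (7.37% and 8.59%). Adjacent steps share the samples of the day between them.

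Day 28 was also set against day -30, since both lie among the days of good agreement between orientations. Limma called 0 members and 0.347% of all elements. An unadjusted p under 0.05 was reached by 9 of the 56 members and by 15.8% of all elements, a similar share. Of 56 elements 54 lay above 0, with a median of 0.20 against 0.05 over all elements. The median was 0.25 in Cy5 and 0.11 in Cy3, with 0 calls in each. In Cy5 and Cy3 19 and 1 members had an unadjusted p under 0.05 (11.4% and 13.6% of all elements). The first RPS15A element was at 0.47 ± 0.15 (adjusted p = 0.128), higher in 8 of 8 cows, and RPS9 at 0.30 ± 0.10 (adjusted p = 0.13).

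Feeding level was compared on each day. On day -14 10 of 56 elements passed as lower in ad libitum cows and 0 as higher (17.9%), against 5.14% of all elements lower and 0.943% higher. The median difference was -0.38, against 0.005 over all elements. The other 46 elements did not pass, and 12 of the 56 lay above 0. The second RPL8 element and RPS2, a protein near the mRNA entry, differed by -0.90 each (SE 0.23 and 0.22), and RPL7A by -0.88 ± 0.19 (adjusted p = 0.00717). The second RPL3 element was at -0.77, RPLP1 at -0.74, RPL29 at -0.73, RPL13A at -0.72, the first RPL35 element at -0.71, RPL38 at -0.70 and RPL28 at -0.67.

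RPL7A was at -1.24, -0.86, -0.52 and -0.18 in the ad libitum cows and at -0.13, -0.019, 0.40 and 0.48 in the restricted cows on day -14. The feeding groups did not overlap, but their nearest cows, 7187 and 7045, were close. RPS2 was at -1.13, -1.03, -0.91 and -0.47 in ad libitum and at -0.47, 0.013, 0.25 and 0.25 in restricted cows, without overlap but with cows 7187 and 7045 almost equal. RPL13A was at -1.63, -1.26, -1.15 and -0.86 in ad libitum and at -0.98, -0.53, -0.39 and -0.11 in restricted cows. Here cow 7187 lay above the restricted cow 7045.

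The day -14 difference depended on few cows. The count was 0 without cow 7050 or cow 7105, 2 without cow 6886, 5 without cow 6952, 10 without cow 7161 and 13 to 19 without any other cow. With the liver in Cy5 9 elements passed lower (7.04% of all elements) and in Cy3 0 (0% of all elements), although the median difference was similar in both, at -0.33 and -0.39. Without centring 0 passed (0.248% of all elements were lower), with a median of -0.62 against -0.23 over all elements. The agreement of the orientations on that day averaged 0.609 in ad libitum and 0.727 in restricted cows, and with agreement as a covariate 5 passed.

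On day 1 RPL7A (-0.67 ± 0.19, adjusted p = 0.0185) and RPL13A (-0.49 ± 0.16, adjusted p = 0.0384) were lower in ad libitum cows, 2 of 56 elements against 1.91% of all elements lower. The median difference was -0.29, against -0.09 over all elements, and 51 of 56 lay below 0. Limma called 2 members in Cy5 and 0 in Cy3 (11.4% and 0.0369% of all elements in either direction), with medians of -0.29 and -0.30. RPL7A was at -0.82, -0.67, -0.64 and -0.36 in ad libitum and at -0.30, -0.072, -0.057 and 0.60 in restricted cows, without overlap. On day 14 the first RPL8 element was higher in ad libitum cows by 0.50 ± 0.17 (adjusted p = 0.032), 1 of 56 against 11.6% of all elements higher. Of the members 0 passed in Cy5 and 2 in Cy3 (8.08% and 11.2% of all elements in either direction). Its values were -0.76, -0.72, -0.64 and -0.011 in ad libitum and -1.66, -1.002, -0.74 and -0.72 in restricted cows, which overlapped. Neither call stood in every setting: day 1 had 0 calls without cow 6886, 7045, 7161 or 7187, and day 14 had 0 without cow 6886, 7045, 7105 or 7161.

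On days -65, -30, 28 and 49 limma called 0 members and 0 of all elements between the feeding levels. An unadjusted p under 0.05 was reached by 0, 3, 1 and 0 members (3.54%, 0.96%, 1.15% and 0.6% of all elements). The median differences were below 0, at -0.09, -0.23, -0.16 and -0.11, with 38, 47, 53 and 48 of 56 elements below 0, and the median over all elements lay between -0.02 and 0.004. Limma called 0 members on these days in either orientation. On days -30 and 28 the medians were below 0 in both, at -0.18 and -0.20 in Cy5 and -0.28 and -0.15 in Cy3. On days -65 and 49 they were -0.15 and -0.26 in Cy5 but 0.03 and 0.04 in Cy3. The interaction of feeding level with the step from day -30 to day -14 had 0 calls among members and 0% among all elements (smallest adjusted p = 0.431). At an unadjusted p under 0.05 were 4 members and 9.12% of all elements. The interaction with the step from day 14 to day 28 had 0 and 0.0124% (smallest adjusted p = 0.191). There 7 members and 16.45% of all elements had an unadjusted p under 0.05. Neither interaction called a member in Cy5 or in Cy3 alone. For the earlier step 5 and 1 members had an unadjusted p under 0.05 (11.8% and 5.05% of all elements). For the later step 1 and 7 members did (8.14% and 15.8% of all elements). A difference in the size of these steps between feeding levels was thus not shown. Within ad libitum cows the median change by day -14 was 0.44, within restricted cows 0.59.

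**Figure D5:**
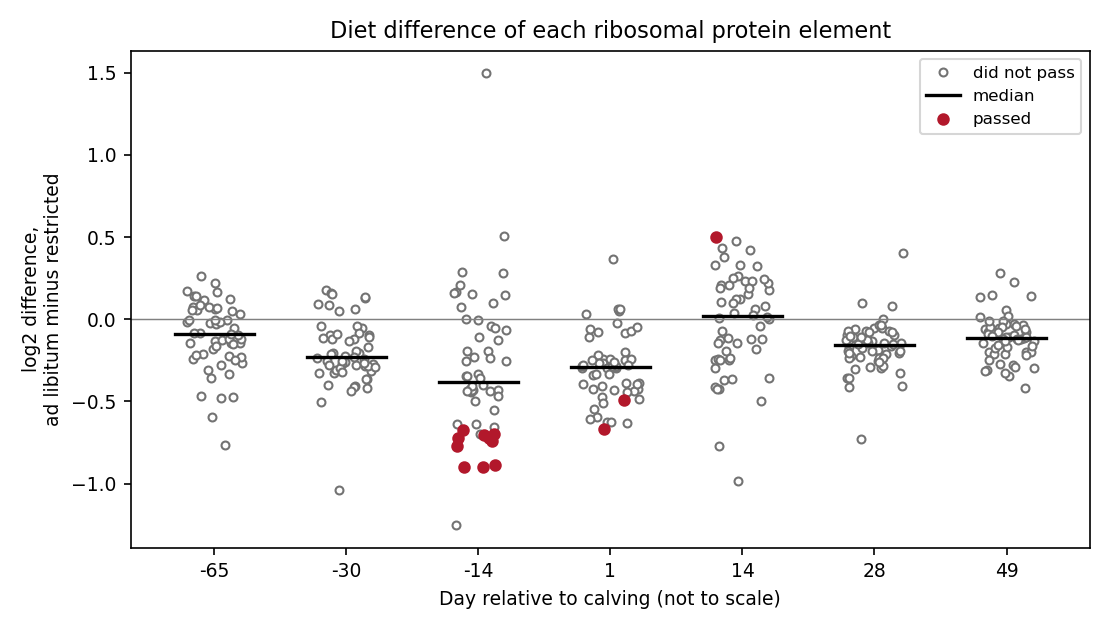
Difference between ad libitum and restricted cows in log2 ratio (vertical axis) for each of the 56 ribosomal protein elements by day relative to calving (horizontal axis). Filled points passed at an adjusted p under 0.05, bars are medians, and points are spread sideways for legibility. The median is -0.38 on day -14, where 10 elements passed, and 0.02 on day 14.

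Ribosomal protein elements varied together among cows of the same feeding level and day. Over the 55 members with complete values the median correlation between pairs, after removing group means, was 0.44, with quartiles of 0.11 and 0.65. Over all 7577 complete elements it was -0.01, with quartiles of -0.23 and 0.22. All pairs share arrays and dyes, so this is a description. Both RPL27 elements had the highest mean correlation with the other members, at 0.54 and 0.56, followed by RPL13A, RPL31 and RPL14. The second elements of RPS24 (-0.10) and RPS15A (0.04) stood apart, as did both RPL6 elements, RPS3A and the second RPL15 element (0.13 to 0.16). Elements with a lower ratio on day -65 had the larger change by day -14: across the 56 members the correlation was -0.56, and across all elements -0.28.

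Other transcripts of the translation machinery give the setting. Of 21 elements for other TOP mRNAs (15 of 24 genes listed) 9 rose (42.9%) and 0 fell from day -30 to day -14, against 19.5% and 14% of all elements, with a median change of 0.46. RACK1, a scaffold bound to the small subunit, rose by 0.78 ± 0.15 and 0.77 ± 0.16 in its 2 leading elements. EEF2, the elongation factor that moves the ribosome along the mRNA, rose by 0.69 ± 0.15 in its leading element. EIF3L, a subunit of an initiation factor, rose by 0.55 ± 0.12 and BTF3, part of the nascent chain complex, by 0.46 ± 0.14. From day 14 to day 28 3 of the 21 fell (14.3%, against 4.91% of all elements), all for EEF2 (by 0.77, 0.57 and 0.38).

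Of 44 elements for mitochondrial ribosomal proteins 9 rose and 7 fell by day -14, which at 20.5% and 15.9% lay close to the shares of all elements (19.5% and 14%). MRPL28 (0.39 ± 0.10), MRPL24 (0.47 ± 0.13) and MRPL38 (0.50 ± 0.14) rose, and MRPL45 fell by 0.38. Of 30 elements for ribosome assembly and synthesis of ribosomal RNA 2 rose (6.67%) and 5 fell (16.7%). TSR1, which matures the small subunit, rose by 0.69 ± 0.16. RRP12, a factor of subunit export, fell by 0.76, POLR1A, the large subunit of RNA polymerase I, by 0.35, and NOP10, of the H/ACA particle, by 0.42. Of 26 elements of mTOR and S6 kinase signalling 5 rose and 4 fell, again close to the shares of all elements at 19.2% and 15.4%. LARP1, the repressor of TOP mRNAs, rose by 0.53 ± 0.10 in 1 element, TSC1 by 0.45 ± 0.13, and AKT1 and MKNK1 fell by 0.51 and 0.64.

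Markers of cell types also moved by day -14, a step in which 19.5% of all elements rose and 14% fell. Of the 4 hepatocyte elements 3 fell, SLC10A1 by 1.39, TF by 0.76 and RBP4 by 0.45, and the mean over the 4 in a cow went from between 4.32 and 4.72 to between 3.53 and 4.00. Of 8 endothelial elements 3 fell and 1 rose, and the list's mean in a cow went from 1.34 to 1.91 down to 0.91 to 1.65. Of 7 elements of stellate cells and fibroblasts 4 rose and 0 fell, TAGLN by 0.71 and 0.54, COL3A1 by 1.84 and THY1 by 0.26, and the mean went from between -2.64 and -2.39 to between -2.31 and -0.74. Of 12 macrophage elements 1 rose and 4 fell. S100A12, the 1 neutrophil gene of its list measured, rose by 0.97 ± 0.20, MZB1 of plasma cells fell by 0.50, and of 3 T and NK cell and 2 bile duct elements 0 passed. From day 14 to day 28 3 of 4 hepatocyte, 5 of 8 endothelial and 3 of 12 macrophage elements rose, against 3.71% of all elements. In that step 3 of 7 stellate elements and S100A12 (-0.74) fell, against 4.91% of all elements. Of the T and NK cell, plasma cell and bile duct elements 0 passed. A ratio to the reference does not tell whether such a marker is absent.

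The 2 orientations were also compared for these lists. In the step from day -30 to day -14 the stellate, T and NK cell and plasma cell lists had a lower median change in Cy5 than in Cy3. The other lists had a higher one, as the ribosomal proteins did. From day -30 to day -14 the median change of the hepatocyte elements was -0.53 with the liver in Cy5 and -0.90 in Cy3, and that of the stellate elements 0.51 and 0.69. The TOP elements had 0.47 and 0.21, the mitochondrial ribosomal elements 0.21 and -0.06, and the assembly elements 0.10 and -0.16, against 0.77 and 0.23 over the 56 ribosomal protein elements. All elements had 0.07 in both. The part of cell composition in the ribosomal protein changes was not tested.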

How the data were processed

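The authors deposited log2 ratios (Cy5 over Cy3) of 16416 spots for 106 arrays, read from GenePix 4.0 images per the labels. Background correction and normalization are not given in the sources used here, and array medians from -1.69 to 1.80 show that the arrays were not centred. The log base was read from the values.

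Ratios were turned to liver over reference by the dye in each title, the 2 spots of an element were averaged, and each array was centred on its median. Both orientations of a cow and day were then averaged as 1 sample. Elements with at least 2 cows in each of 14 groups were tested (8061 of 8208). R 4.3.3 with limma 3.58.1 and statmod 1.5.0 fitted a mean per group, cow being a random block (correlation 0.0176), because cow numbers in the labels pair samples across days. Each test was two-sided, with adjustment after Benjamini and Hochberg over all elements in each of 17 comparisons, threshold 0.05. The fit was tested on simulated data. The number of cows, with 2 arrays for each sample, limits the precision. Fits on 1 orientation used the same minimum.

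The platform annotation gave 1 symbol for 5598 elements, several for 95 and none listed for 2515. For 5591 of the elements with 1 symbol, the symbol used was that of the RefSeq gene with the same gene ID. A cDNA element can also bind transcripts of related genes and processed copies. The members and gene lists were chosen with earlier results of these data known. In each comparison up to 10 members per direction with the largest change that passed are named, others where a count is broken down, up to 3 per direction by p where none passed, and up to 4 genes per other list by p. Cow values are given for the 3 genes per subunit with the smallest F test p. Those for diet members, RPL15, RPS25 and differing elements were added after seeing values.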

Additional observations from a re-analysis of the deposited data

Results flagged for a closer look

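In 84 groups of 4 cows (the members' median and the 6 elements shown by cow), 6 had a cow far from the other 3, by a gap of over 0.829 of the group's range. Chance flags about 1 group in 20. The members' median of ad libitum cow 7187 on day -30 was -1.28, below the others at -1.09 to -1.07. On day 14 RPS29 was at 0.028 in ad libitum cow 7161 (others -0.48 to -0.40) and RPL39 at -1.19 in ad libitum cow 7187 (others -1.46 to -1.45). The first RPL35 element was at 0.28 in restricted cow 6952 on day 1 (others -0.33 to -0.24) and at -1.10 in restricted cow 7105 on day 28 (others -0.59 to -0.50). RPL39 was at -1.85 in the same cow on day 28 (others -1.34 to -1.31).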

How the results depend on the processing

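All settings were planned. In Cy3 alone 13 of 56 differences of day -14 against day -30 turned sign, 5 of them called on both orientations together, RPS16 for example from 0.36 to -0.0037. For that comparison at most 3 turned under the other settings and without any 1 cow, none of them called. For day 28 against day 14, 15 of 56 turned in Cy3 alone, 8 without centring and 7 in Cy5 alone. For ad libitum against restricted cows on day -14, 10 turned without cow 7105 and 8 without centring. None of these differences had been called on both orientations together. The 40 calls of day -14 against day -30 were 8 with the liver in Cy3 alone and 34 to 53 under every other setting with all cows. The 8 calls of day 28 against day 14 were 43 without centring, 34 with scaled and 25 with quantile normalised arrays, 2 in Cy3 alone and 5 without the samples of agreement under 0.6. The 2 calls of day -30 against day -65 were 1 with scaled arrays, in Cy5 alone, without a block, with cow as a fixed block, with the agreement covariate and without the samples of low agreement. They were 0 without centring, with quantile normalisation, in Cy3 alone and with elements averaged. The 47 of the F test were 30 of 57 in Cy3 alone, where 51.3% of all elements passed.

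For ad libitum against restricted cows the 10 calls of day -14 were 0 without centring and in Cy3 alone, 3 with scaled arrays, 5 with the covariate and 6 without the samples of low agreement. The 2 of day 1 were 0 without centring, in Cy3 alone and without those samples, 1 with the covariate and 6 with quantile normalisation. The call of day 14 was 0 without centring, in Cy5 alone, without those samples and with elements averaged, 2 in Cy3 alone (1 in each direction) and 3 with the covariate. With scaled or quantile normalised arrays its 1 call was lower, not higher.

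Leaving out each cow gave 26 to 41 calls for day -14 against day -30, 0 to 16 for day 28 against day 14, 0 to 2 for day -30 against day -65, 0 to 1 for day 1 against day -14, 0 to 2 for day 14 against day 1, and 43 to 48 for the F test. By diet it gave 0 to 19 on day -14, 0 to 3 on day 1 and 0 to 4 on day 14. Without an ad libitum cow 1 can remain on day 49, and it is assumed to vary like the other groups. Without a replicate block for cow, day -14 against day -30 had 40 calls and day 28 against day 14 had 7, and with cow as a fixed block, which cannot give diet differences, 40 and 9. Of 33 named calls, 28 were lost in Cy3 alone, 15 without centring and 8 in Cy5 alone. The causes were not tested. The sources used here give no signal over background.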
